A study of Mus musculus with 63 samples.

Results

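The 7 genes described here, Muc2, Fcgbp, Clca1, Zg16, Agr2, Tff3 and Spink4, encode products with which intestinal goblet cells build and secrete mucus. They were found by symbol among the 24766 genes of the expression table, and all 7 passed the filter on low values in every comparison. Bulk RNA of 63 dissected small intestinal tumours or tumour parts from 2 mice was sequenced. Both mice were heterozygous for Villin-creERT2, an Apc fl/+ allele and the R26R-Confetti colour reporter on a C57BL/6 background (labelled Apchet), so every library shares these alleles. The Villin promoter drives Cre in intestinal epithelium, and Cre was activated by a single dose of 4 mg tamoxifen. Both mice received the mutagen N-ethyl-N-nitrosourea (ENU) at 200 mg per kg 10 days later. The age of these mice is given only as a minimum in the methods. One mouse was female and one male, so sex and mouse cannot be told apart.

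In 20 tumours made of clones told apart by reporter colour or its absence, the clones were dissected apart, which gave 20 major and 20 minor clones, 10 tumours from each mouse. Major and minor stand for the larger and smaller contributor to the tumour, and the class of each clone was copied by sample title from the study's source data, since the sample labels give only a letter. Another 23 tumours were sequenced whole and are called undivided (10 of the female and 13 of the male mouse). The design text names fewer tumours of this kind than there are libraries with no clone letter, and does not list them. Tumours 15, 17 and 18 of the male mouse carry numbers above 10, so each comparison of undivided tumours was also run without them. Labels place each library in small intestinal segment SI10, SI20 or SI30, and SI30 is represented by 2 divided tumours of the female mouse. No normal intestine was analysed here, so each comparison is between tumour samples. P-values measure the spread between tumours of these 2 mice, not between mice.

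Goblet cells are the mucus-secreting cells of the intestinal epithelium and arise from the secretory lineage of the crypt. They assemble and glycosylate the gel-forming mucin in the endoplasmic reticulum and Golgi, pack it into granules and release it to form a layer that holds bacteria and food away from the epithelium. Other secreted proteins bind to or process this gel, and the members stand for several of those steps. MUC2 is the gel-forming mucin of the intestine, and AGR2 is a disulfide isomerase of the endoplasmic reticulum needed for its production. FCGBP binds within the mucin network, CLCA1 is a secreted metalloprotease that processes it, ZG16 is a lectin that binds Gram-positive bacteria, TFF3 is a trefoil peptide linked to epithelial repair, and SPINK4 is a small secreted protein of the Kazal inhibitor family.

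The members lie on 5 chromosomes (GRCm39, Gencode M39). Fcgbp (chr7:27770661-27820287), Muc2 (chr7:141276583-141308430), Agr2 (chr12:36042904-36054086) and Spink4 (chr4:40920044-40931396) are on the plus strand. Zg16 (chr7:126649302-126686500), Tff3 (chr17:31344280-31348620) and Clca1 (chr3:144709578-144738537) are on the minus strand. Zg16 overlaps a long non-coding RNA gene on the opposite strand, Gm44939, by 2584 bases, and the strand setting of the quantification is not given in the sources used here. Fcgbp has a similar neighbour, Fcgbpl1, whose median was 50.5 normalised counts in major clones against 68689 for Fcgbp, and reads could have been shared between them.

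The 250 bases before the annotated start of the canonical transcript are shown for 2 members, Zg16 and Agr2, 1 from each of 2 pairs of members described further on (Zg16 with Tff3, and Agr2 with Spink4). Capitals mark any match, on either strand, to 6 short motifs: CAGCTG (an E-box of the ATOH1 class), TGTTTAC (FOXA), CACCC (KLF), TGACGTG (XBP1 and CREB3 factors), CATAAA (CDX) and TATAAA (the core promoter box bound by TBP). The windows are chr7:126651848-126652097 (minus strand) and chr12:36042654-36042903 (plus strand) in GRCm39.
Zg16: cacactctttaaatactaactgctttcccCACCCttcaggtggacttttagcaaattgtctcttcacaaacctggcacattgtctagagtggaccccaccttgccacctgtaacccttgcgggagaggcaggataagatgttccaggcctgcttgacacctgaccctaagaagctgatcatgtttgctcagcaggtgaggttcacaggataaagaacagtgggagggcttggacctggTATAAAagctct
Agr2: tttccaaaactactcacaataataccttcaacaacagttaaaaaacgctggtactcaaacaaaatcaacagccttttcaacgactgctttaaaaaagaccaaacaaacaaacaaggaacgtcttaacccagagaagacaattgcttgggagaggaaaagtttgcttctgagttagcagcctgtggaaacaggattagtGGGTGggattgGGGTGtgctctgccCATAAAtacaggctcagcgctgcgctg

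The Zg16 window held a TATAAA match and a CACCC match. The Agr2 window held CACCC on the minus strand at 2 positions and a CATAAA match at position -27 from the start. Among the windows of 5 members (Muc2, Fcgbp, Clca1, Zg16 and Agr2), CAGCTG was found in 2 (Muc2 and Fcgbp), CACCC in 4, TATAAA in 2 and CATAAA in 1, and neither TGTTTAC nor TGACGTG was found. Of 16903 protein-coding genes with a window of the same length, 11.8% held CAGCTG, 56.6% CACCC, 8.97% TATAAA, 8.07% CATAAA, 2.48% TGTTTAC and 1.72% TGACGTG. These matches describe the letters only.

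All 7 genes were strongly expressed in every group. Per kilobase of canonical transcript, the median over all 63 libraries was highest for Zg16 (56636 normalised counts per kb), followed by Tff3 (24942), Spink4 (14113), Agr2 (8759), Fcgbp (7803), Clca1 (1251) and Muc2 (997). This order is over all groups together: Muc2 was above Clca1 in major (1525 against 1451) and minor clones (988 against 847), and Fcgbp above Agr2 in undivided tumours (8702 against 6356). The ranges of neighbours in this order overlapped, and Muc2 reached 3136 per kb where Clca1 went down to 282 per kb. Zg16 stood at rank 31 of 24575 genes with an annotated length and Muc2 at rank 1989. Together the members made up a median of 0.601% of a major clone's library, 0.484% of a minor clone's and 0.491% of an undivided tumour's. The lowest share, 0.0949%, was in a minor clone.

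Library sums were similar in the 3 groups, with medians of 30049805.5 to 31645557 normalised counts. The estimated depth, the library sum divided by its most common low value, ran from 13128900 to 51988700 reads. Among all pairs of libraries the highest correlation of log2 values was 0.979, and no library was counted as a duplicate. The 18S ribosomal RNA, Rn18s, made up 1.24% of the library in the median major clone, against 6.19% for minor clones and 3.11% for undivided tumours.

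**Figure D1:**
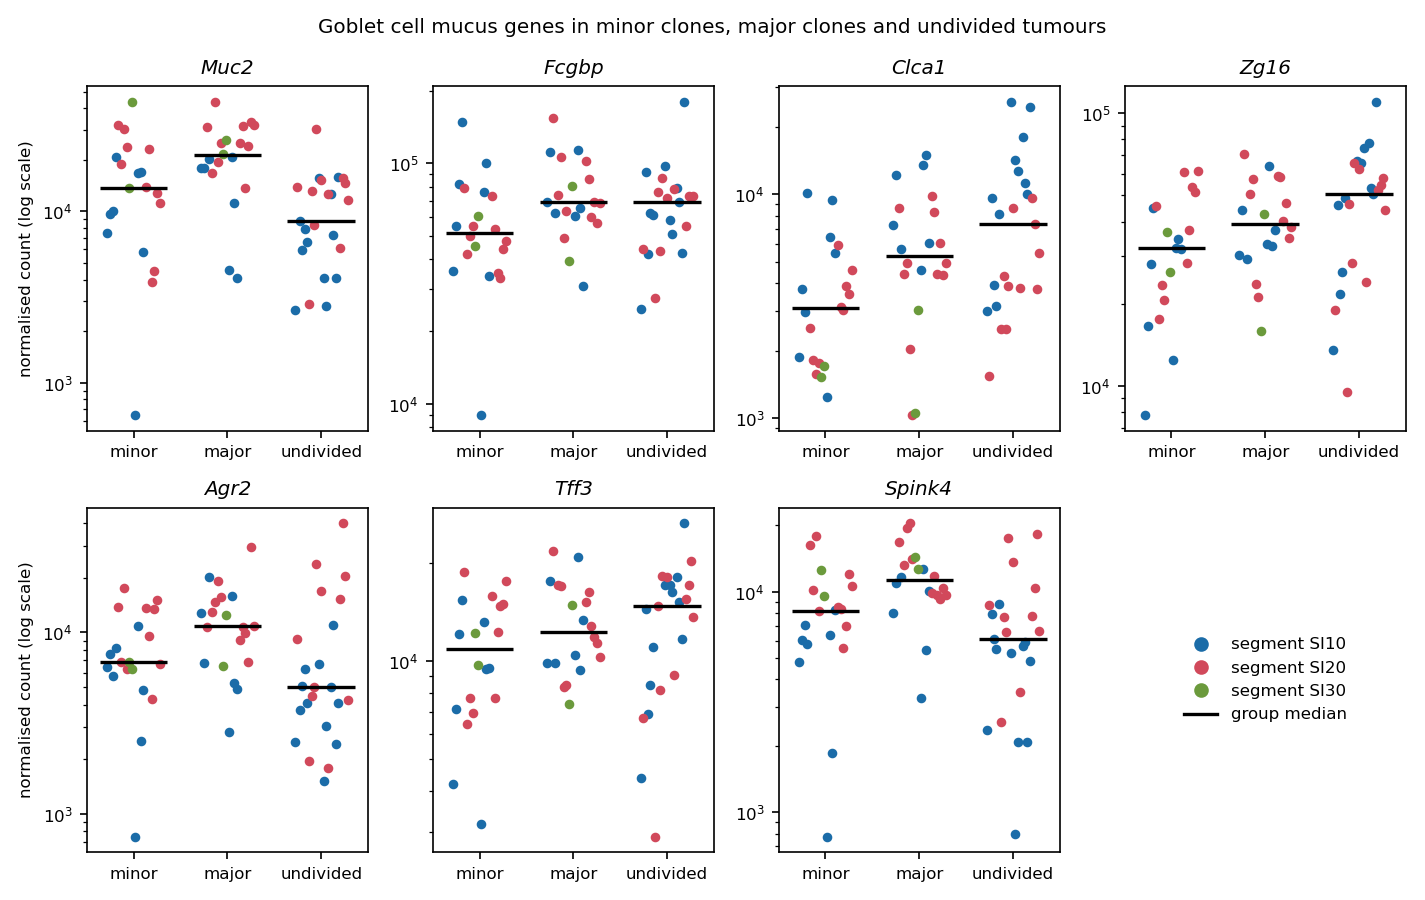
Normalised count of each member (log axis) in 20 minor clones, 20 major clones and 23 undivided tumours, 1 point per library coloured by segment, with a line at the group median. The groups overlap for every gene, and the lowest point of Muc2, Fcgbp, Agr2, Tff3 and Spink4 among the clones comes from tumour 19 of the male mouse, from its minor clone.

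The first comparison asked how 2 clones that share a tumour differ. All 7 members were on average higher in the major clone, and 2 of them, Spink4 and Clca1, passed the test. Spink4 rose by 0.63 on the log2 scale (SE 0.12) and Clca1 by 0.70 (SE 0.17). In this comparison 188 of 16428 genes were called, 1.14% of those tested, and 0.67% were called with the major clone higher. The direction of the calls depended on the scaling: 110 of 188 were higher in the major clone, against 141 of 366 with quantile normalization and 129 of 2383 with scaling to epithelial genes, while both member calls stayed higher under each of these. The median fold change of the members was 0.57 (log2), against 0.01 over all genes tested.

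Spink4 had a lowest, median and highest level of 3278, 11301 and 20400 normalised counts in major clones and of 775, 8199 and 17904 in minor clones. The ranges overlapped widely, but within tumours the major clone was higher in 17 of 20. The largest differences were in tumours 19 and 22 of the male mouse, 2.08 and 1.55 on the log2 scale. In limma with tumour as a block, the difference of 0.63 had a 95% interval of 0.37 to 0.89 and an adjusted p of 0.0238.

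Clca1 ranged from 1030 to 14948 in major clones, with a median of 5302, and from 1245 to 10133 in minor clones, with a median of 3096. Again 17 of 20 tumours had the higher level in the major clone. The 3 exceptions, tumours 23, 28 and 29, were all of the female mouse, with differences of -0.83, -0.78 and -0.54. The limma estimate of 0.70 had an interval of 0.34 to 1.05 and an adjusted p of 0.0465.

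The other members did not pass. Muc2 had medians of 21216 in major and 13746 in minor clones, with a range of 4099 to 43642 in the former and 646 to 43562 in the latter. Its difference of 0.69 (SE 0.22, limma adjusted p = 0.0817) was positive in 14 of 20 tumours. Agr2 had medians of 10799 and 6866, and its difference of 0.57 (SE 0.15, adjusted p = 0.0577) was positive in 15 of 20.

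The estimates were smallest for Fcgbp, Zg16 and Tff3. Fcgbp had a median of 68689 in major and 51425 in minor clones (difference 0.49, SE 0.17, limma adjusted p = 0.104). For Zg16 the medians were 39139 and 31894 (0.39, SE 0.18, adjusted p = 0.214), and for Tff3 they were 12342 and 10931 (0.34, SE 0.16, adjusted p = 0.201). The major clone was higher in 14, 13 and 12 of 20 tumours for these 3 genes, in that order.

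**Figure D2:**
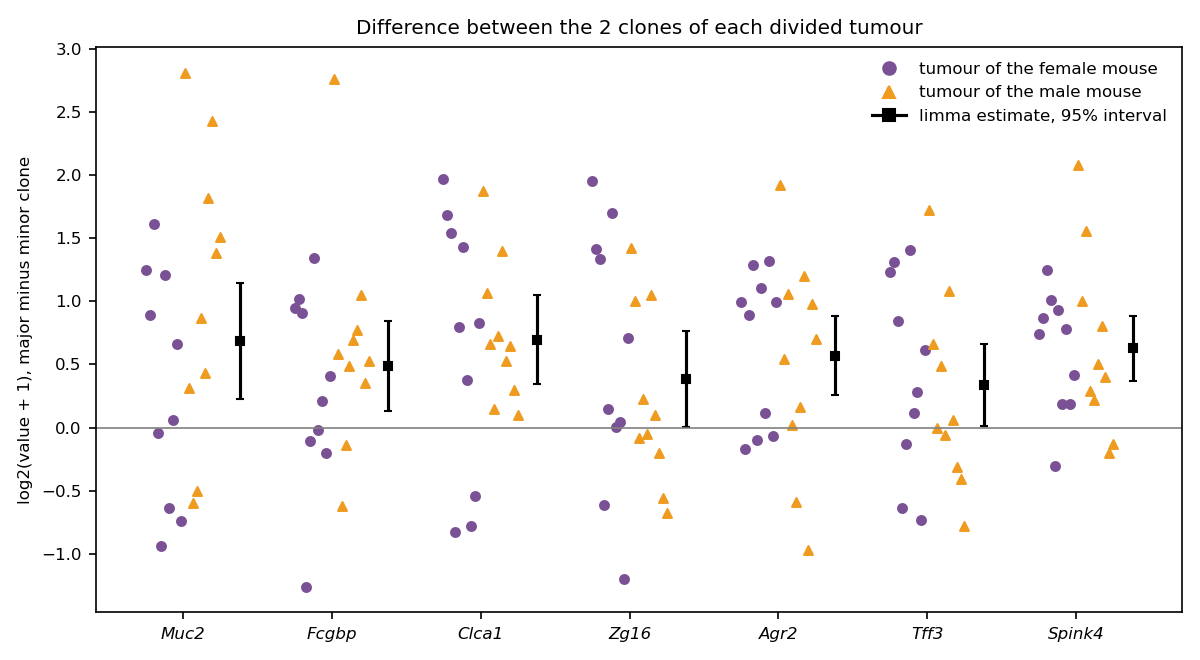
Difference in log2(value + 1) between the major and the minor clone of each of 20 divided tumours, 1 point per tumour, with the limma estimate and its 95% interval as a black square and bar. The intervals are not adjusted for the number of genes tested. All 7 lie above 0, those of Zg16 and Tff3 barely, but only Spink4 and Clca1 passed the test. Of all genes, 22.4% had an unadjusted p under 0.05 (limma). Spink4 has the narrowest spread between tumours.

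Tumours differed in how many members followed this direction. In 7 of 20 tumours all 7 members were higher in the major clone, and in 3 tumours only 2 were. Tumour 19 of the male mouse had the largest mean difference over the members, 2.08, and its minor clone had the lowest Muc2, Fcgbp, Agr2, Tff3 and Spink4 of the 40 clones (Muc2 at 646 and Agr2 at 747). Without this tumour, the Muc2 difference was 0.58, that of Agr2 0.50, that of Fcgbp 0.37 and that of Tff3 0.27. In tumour 28 of the male mouse Muc2 was 2.42 higher in the major clone while Agr2 was 0.97 lower, so the members did not move as 1 block within a tumour.

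The 2 calls depended on the pairing, on single tumours and, for Clca1, on choices of processing. Clca1 was not called with no filter, without limma's variance trend, with SI10 and SI20 only or by the exact signed-rank test. Without the tumour block the estimates were the same, but limma's adjusted p was 0.215 for Spink4 and 0.230 for Clca1. Leaving out 1 tumour at a time kept the Spink4 call in 19 of 20 fits (lost without tumour 20 of the male mouse, adjusted p = 0.0518) and the Clca1 call in 6 of 20 (those without tumours 19, 23, 27, 28 or 29 of the female or 31 of the male mouse, adjusted p from 0.0303 to 0.0884 over the 20). Agr2 was called without tumour 19 (adjusted p = 0.0470) or 29 (0.0450) of the female mouse or 28 of the male mouse (0.0382). Rn18s was lower in the major clone by 1.46 on average (log2, SD 1.55) and higher in it in 5 of 20 tumours, and with Rn18s as a covariate the differences were larger, 0.76 for Spink4 and 0.87 for Clca1, but limma's adjusted p was 0.188 and 0.279. The part of ribosomal RNA in the result was not tested further. By mouse, Spink4 differed by 0.61 in the female and 0.65 in the male mouse (limma adjusted p = 0.659 and 0.112), and Clca1 by 0.65 and 0.74 (adjusted p = 0.673 and 0.0665).

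Some markers of other cells also differed between the clones. Called higher in the major clone were 3 of 8 enteroendocrine and 1 of 8 enterocyte markers, beside 0.67% of all genes (limma, 7 and 5 with an unadjusted p under 0.05). No epithelial, Paneth, tuft, stem cell, fibroblast, smooth muscle, endothelial, leukocyte or gastric surface mucous marker was called, so the values of those lists are given as leanings only. As a mean of log2 levels, the 8 epithelial markers were higher in the major clone by 0.17 (SD 0.25, 16 of 20 tumours), and the 8 enterocyte markers by 0.59 (SD 0.90, 15 of 20). The 8 enteroendocrine markers were higher by 0.64 (SD 0.67, 14 of 20), the 8 Paneth markers by 0.41 (SD 0.86, 12 of 20) and the 6 fibroblast markers by 0.59 (SD 1.13, 13 of 20). Smooth muscle (5 markers), endothelium (5), leukocyte (6) and stem cell (5) markers were higher by 0.61 (SD 1.05, 15 of 20), 0.23 (SD 0.89, 9 of 20), 0.43 (SD 0.67, 15 of 20) and 0.30 (SD 0.66, 13 of 20), in that order. The 6 tuft cell markers differed by -0.05 (SD 0.73, higher in 9 of 20). The 5 markers of gastric surface mucous cells differed by -0.67 (SD 1.43, higher in 7 of 20). Il25, a tuft cell cytokine, was at a median of 0 in major clones, and no other of these markers was at a median of 0 in either class of clone. The part of these cells in the result was not tested. Scaled to the epithelial markers, Spink4 differed by 0.46 and Clca1 by 0.53, and both kept their calls, beside 2383 of 16428 genes called. On that scale Muc2 had 0.52, Agr2 0.40, Fcgbp 0.32, Zg16 0.22 and Tff3 0.17. There 5 of the 7 members had an unadjusted p under 0.05 (limma), beside 5939 of 16428 genes. With quantile normalization 5 of 7 members did, beside 3742 genes, and as first fitted 7 of 7, beside 3680 genes. In bulk samples, fewer cells of a type and less RNA per cell cannot be told apart.

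The difference between clones was compared between segments and between mice. No member and no gene passed the test in either (limma, 667 of 16436 genes at an unadjusted p under 0.05 between segments and 1257 of 16428 between mice). Spink4 had the largest gap between segments, 0.76 lower in SI20 than in SI10 tumours (log2, 95% interval -1.25 to -0.26, unadjusted p = 0.00470, adjusted p = 0.998). For Muc2 the gap was 0.71 larger in the male than in the female mouse, with an interval that included 0.

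Genes that act with the members were next examined. Of 27 tested genes of goblet cell differentiation and secretion, 2 rose in major clones, beside 0.67% of all genes, and none fell. Of the same 27, 21 lay above 0 (median 0.20, against 0.01 over all genes) and 12 had an unadjusted p under 0.05, beside 22.4% of all genes. Atoh1, the transcription factor that commits crypt cells to the secretory lineage, rose by 0.69 (SE 0.13, limma adjusted p = 0.0207). The median level was 223 normalised counts for the major clone and 143 for the minor clone. Creb3l1, a membrane-bound transcription factor of secretory cells, rose by 0.43 (SE 0.10, adjusted p = 0.0388), with medians of 1349 and 1003.

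Of 24 enzymes and transporters of mucin O-glycosylation, 1 rose (beside 0.67% of all genes), none fell and 22 lay above 0 (median 0.19), with 13 at an unadjusted p under 0.05. The gene that rose was Galnt5, which starts O-glycan chains, by 0.75 (SE 0.17, limma adjusted p = 0.0377). None of the 20 other secreted goblet and mucus products tested passed, and 6 of them had an unadjusted p under 0.05, a level that 22.4% of all genes reached in this comparison. In this list Retnlb, an antibacterial goblet cell protein, had the largest value in favour of the major clone (1.14, adjusted p = 0.0686), followed by Clca3b (0.90, adjusted p = 0.0670). Agr3, a relative of Agr2, and the gastric mucin Muc5ac had the largest values the other way, -0.66 (adjusted p = 0.180) and -0.66 (adjusted p = 0.255). None of 6 membrane mucins passed in this comparison, 4 with an unadjusted p under 0.05, again beside 22.4% of all genes. Muc20 (0.73, adjusted p = 0.160) and Muc4 (0.43, adjusted p = 0.124) had the largest values above 0, and Muc1 (-0.30, adjusted p = 0.595) was the only one below 0.

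Undivided tumours were next compared with each class of clone. Both comparisons share the same 23 undivided tumours and are therefore not independent. Clca1 was the only member called, and it was higher in undivided tumours than in minor clones by 0.97 (SE 0.25, limma adjusted p = 0.0263). Muc2, Spink4 and Agr2 had lower values in undivided tumours than in major clones, by 0.85 to 1.15 on the log2 scale, without passing the test. In the female mouse alone these values were -1.53 for Muc2, -1.10 for Spink4 and -1.29 for Agr2, and in the male mouse -0.81, -0.78 and -0.46. Against minor clones 610 of 16491 genes were called, 3.7% of those tested, and 2.27% were called with undivided tumours higher (375 of 610, against 238 of 649 with the same sum, 36 of 116 with epithelial scaling and 688 of 1457 with Rn18s as a covariate). Against major clones 2 of 16510 genes were called, 0.0121%.

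Clca1 ranged from 1536 to 25871 in undivided tumours, with a median of 7340, against the median of 3096 in minor clones. The groups overlapped, and the highest level in a minor clone, 10133, was exceeded by tumours of the male mouse only. In SI10 of the male mouse, undivided tumours had 10062 to 25871, above the 4 minor clones from there (1245 to 9458). In the female mouse alone the difference was 0.61 (limma adjusted p = 0.613), and with only SI10 and SI20 it was 0.92 (adjusted p = 0.0502). The call held in each of the 43 fits that left out 1 library, with an adjusted p of 0.00490 to 0.0465. It was lost with scaling to epithelial genes, where no member was called. Without male tumours 15, 17 and 18 the difference was 0.97 (limma adjusted p = 0.0268).

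Markers of other cells moved in these comparisons too, and their part in the result was not tested. Against minor clones, 5 of 8 enteroendocrine markers (median 0.90) and 2 of 8 enterocyte markers (median 0.53) were called higher in undivided tumours, as were 1 of 8 epithelial (0.07) and 1 of 6 leukocyte markers (0.48), beside 2.27% of all genes. Called lower were 1 of 5 gastric surface mucous (median -1.83) and 1 of 5 endothelial markers (0.03), beside 3.7% of all genes called in either direction. No Paneth, tuft, stem cell, fibroblast or smooth muscle marker was called (limma; 0, 0, 1, 1 and 0 with an unadjusted p under 0.05). Against major clones no marker of any list was called. There 5 of 6 fibroblast markers had an unadjusted p under 0.05 (limma, median -0.89), and the medians of the Paneth and gastric surface mucous markers were -0.64 and -1.19.

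Muc2 ranged from 2662 to 30379 in undivided tumours, with a median of 8815. It was 1.15 lower than in major clones (SE 0.27, 95% interval -1.70 to -0.60, limma adjusted p = 0.132) and 0.44 lower than in minor clones (SE 0.34, adjusted p = 0.506). Without the major clone of tumour 19 of the male mouse, the difference from major clones was -1.27 with an adjusted p of 0.0395. Spink4 had a median of 6109 and was 0.93 lower than in major clones (SE 0.25, adjusted p = 0.226), and Agr2, with a median of 4996, was 0.85 lower (SE 0.32, adjusted p = 0.335). Zg16, Tff3 and Fcgbp had medians of 50501, 14760 and 68987 in undivided tumours, and their differences from major clones were 0.07, -0.09 and -0.20 with limma adjusted p of 0.901, 0.848 and 0.625. At an unadjusted p under 0.05, 3 of the 7 members and 1973 of all genes differed from major clones.

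Of the 4 other lists (20, 27, 24 and 6 genes tested), 1 gene rose and 1 fell in undivided tumours against minor clones. Of all genes, 2.27% were called higher and 3.7% in either direction. Muc13, a membrane mucin of the brush border, was higher by 0.65 (SE 0.16, limma adjusted p = 0.0188). Bace2, an aspartic protease, was lower by 0.68 (SE 0.16, adjusted p = 0.0187). None of the 20 other secreted products and none of 24 glycosylation genes passed (limma, 4 and 6 with an unadjusted p under 0.05, beside 19.6% of all genes), with Muc5ac at -1.83 (adjusted p = 0.138) and Prap1, a secreted proline-rich protein, at 0.91 (adjusted p = 0.0678) as the extremes of the first list. Against major clones none of the 4 lists had a called gene (limma, 5, 7, 3 and 1 genes with an unadjusted p under 0.05, beside 1973 of 16510 genes in all).

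Tumours of segments SI10 and SI20 were compared in the undivided tumours (12 and 11) and, as the mean of both clones, in 17 divided tumours (7 and 10). No member passed in either set of tumours. In both sets Muc2, Agr2 and Spink4 had higher values in SI20, by 0.78 to 1.07, and Clca1 had lower values, by 1.14 and 0.79. Without male tumours 15, 17 and 18 these values in undivided tumours were 0.56 for Muc2, 1.09 for Agr2, 0.80 for Spink4 and -1.09 for Clca1 (limma adjusted p = 0.212 to 0.856). The mice differed in these values, given here with no test of that difference. In undivided tumours Spink4 had 0.36 in the female and 1.49 in the male mouse, Agr2 0.60 and 1.43, and Clca1 -0.84 and -1.38. In divided tumours Agr2 had 0.41 and 1.29 and Clca1 -1.38 and -0.37, in the same order. With Rn18s as a covariate Agr2 had 0.53 in undivided tumours. The called genes made up 0.17% of 16511 in undivided and 0.28% of 16436 in divided tumours. At an unadjusted p under 0.05 Muc2, Agr2, Spink4 and Clca1 differed in each set, and in all 1258 and 2358 genes did.

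No marker of another cell type was called between segments (limma), though several lists leaned one way. Paneth markers had a median of 0.74 in undivided tumours (7 of 8 above 0, 2 with an unadjusted p under 0.05) and of 1.05 in divided ones (8 of 8 above 0, 4 under 0.05). Gastric surface mucous markers had medians of 1.28 and 1.08, with 5 of 5 above 0 in each set. Enteroendocrine markers had a median of -0.71 in undivided tumours, 6 of 8 with an unadjusted p under 0.05, and of 0.19 in divided ones. Fibroblast and endothelial markers had medians of 0.93 and 0.78 in undivided tumours, and enterocyte markers one of 0.37 in divided tumours (4 of 8 with an unadjusted p under 0.05). The part of these cells in the members' values was not tested.

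Clca1 in undivided tumours had a lowest, median and highest level of 3013, 10652 and 25871 in SI10 and of 1536, 3889 and 9578 in SI20. The ranges overlapped, though all 7 SI10 tumours of the male mouse were at or above 10062 and its 6 SI20 tumours at or below 9578. The difference was -1.14 (SE 0.24, 95% interval -1.65 to -0.64, limma adjusted p = 0.0560). It passed when tumour 1 (adjusted p = 0.0371), 3 (0.0425), 4 (0.0337), 7 (0.0334) or 9 (0.0496) of the female mouse or 4 (0.0435) of the male mouse was left out. In divided tumours it was -0.79 (SE 0.31, adjusted p = 0.283).

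Spink4 in undivided tumours had a median of 5390 in SI10 (794 to 8782) and of 7708 in SI20 (2576 to 18194). The limma difference was 0.997 (SE 0.37, adjusted p = 0.545), and in divided tumours it was 0.99 (SE 0.27, adjusted p = 0.161). Agr2 had medians of 4097 and 9146 (1.07, SE 0.46, adjusted p = 0.602), and 0.92 in divided tumours (SE 0.35, adjusted p = 0.276). Muc2 had medians of 6948 and 13118 (0.78, SE 0.35, adjusted p = 0.613), and 1.03 in divided tumours (SE 0.39, adjusted p = 0.276).

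The remaining members had small values. Fcgbp differed by -0.05 and 0.05 and Tff3 by -0.09 and 0.27 in undivided and divided tumours, and Zg16 by -0.33 and 0.41, with every interval spanning 0. In SI30 the 2 major clones had 1052 and 3052 of Clca1 and 14286 and 12670 of Spink4, too few for a test.

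**Figure D3:**
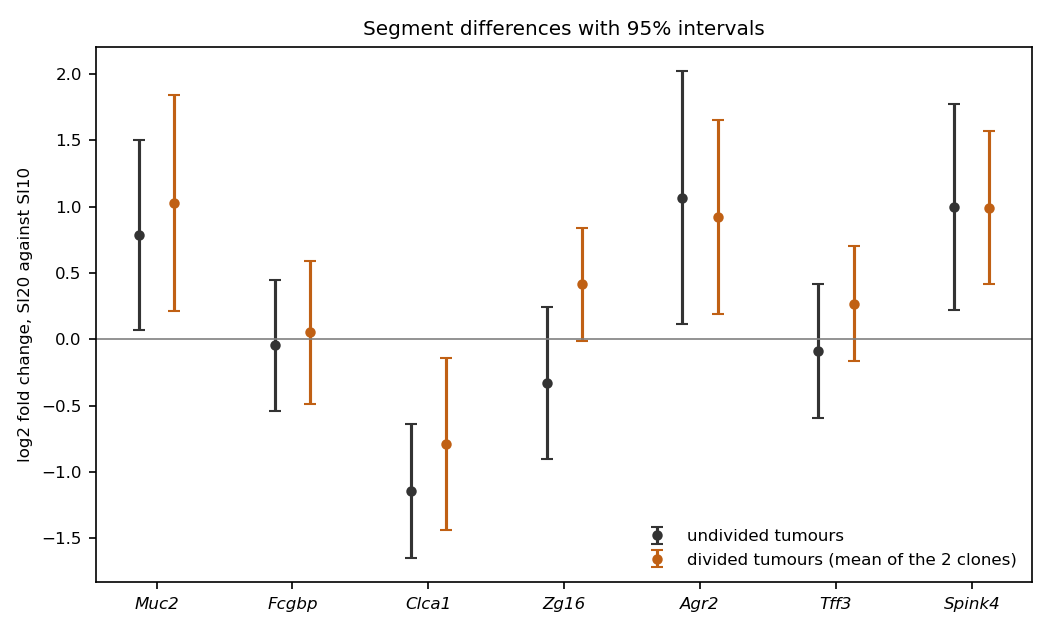
Log2 fold change of each member in SI20 against SI10, with 95% limma intervals, for 23 undivided tumours (black) and 17 divided tumours (orange). Muc2, Agr2 and Spink4 lie above 0 and Clca1 below 0 in both sets, while the intervals of Fcgbp, Zg16 and Tff3 include 0. The intervals are not adjusted for the number of genes tested, and no member passed the test.

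Among the other secreted products, Prap1 fell in SI20 of undivided tumours by 1.42 (SE 0.29, limma adjusted p = 0.0401). In divided tumours Guca2a, the precursor of guanylin, rose by 2.02 (SE 0.28, adjusted p = 0.00260) and Clca4a, of the same family as Clca1, rose by 1.79 (SE 0.31, adjusted p = 0.0192). B3gnt6, which builds core 3 O-glycans, rose in SI20 of divided tumours by 1.63 (SE 0.28, adjusted p = 0.0184) at a low level (geometric mean 9.93 normalised counts). No gene of goblet cell differentiation and secretion and no membrane mucin passed in either set (limma; 4 and 8 genes of the former and 2 and 0 of the latter with an unadjusted p under 0.05, beside 7.62% and 14.3% of all genes).

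The levels of the members were then related to each other over the 23 undivided tumours. Of 21 pairs, 11 had a positive correlation at an adjusted p under 0.05 (permutation test, 100000 permutations, two-sided, Benjamini-Hochberg over the 21 pairs). Within the female mouse 12 pairs passed and within the male mouse 5, and with levels centred on the mouse and permuted within it 14 passed. The closest pair was Zg16 and Tff3, the lectin and the trefoil peptide, with r = 0.97 and rho = 0.93 (permutation, adjusted p = 5.25e-05 for r, from the smallest p these permutations can give, and 0.00021 for rho). It was 0.98 in the female mouse, 0.89 in the male mouse and 0.95 without the 2 tumours farthest from the median of Zg16. Agr2 and Spink4 followed a like pattern, with r = 0.81 (rho = 0.76, permutation adjusted p = 5.25e-05 and 0.000262, 0.85 in each mouse).

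Fcgbp was also related to both members of the closest pair, with r = 0.82 for Tff3 (female mouse 0.95, male 0.56, permutation adjusted p = 5.25e-05 over both mice) and 0.77 for Zg16 (female 0.92, male 0.39, adjusted p = 0.000105). Both passed in the female mouse alone (permutation adjusted p = 0.00042 and 0.00226) and neither in the male mouse alone (0.202 and 0.412).

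Clca1 went with Zg16 (r = 0.80, rho = 0.79, permutation adjusted p = 5.25e-05 and 0.000262), less closely within the mice (female 0.63, permutation adjusted p = 0.0756, male 0.76, adjusted p = 0.00826, centred on the mouse 0.66, adjusted p = 0.00143). Clca1 with Tff3 (r = 0.70) and with Fcgbp (0.58) passed over both mice but in neither mouse alone (permutation adjusted p = 0.0999 and 0.219 for Tff3, 0.0905 and 0.436 for Fcgbp, female and male). Centred on the mouse these 2 pairs had 0.49 and 0.46 and passed (permutation within the mouse, adjusted p = 0.0232 and 0.0458). Clca1 had r = 0.04 with Muc2 and -0.22 with Spink4 (permutation adjusted p = 0.841 and 0.377). Muc2 went with Spink4 (r = 0.75, adjusted p = 0.00012) and also with Fcgbp (r = 0.73, adjusted p = 0.000105, permutation). Within a mouse Clca1 and Spink4 had r = 0.29 (female) and -0.35 (male), and in the female mouse Zg16 and Spink4 had r = 0.86 against -0.03 in the male mouse.

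In the 20 divided tumours, which share no sample with the undivided ones, Zg16 and Tff3 again had the highest correlation. It was 0.91 for the mean of the 2 clones (rho = 0.91, permutation adjusted p = 0.00021) and 0.95 for the difference between them (permutation adjusted p = 0.000105). Agr2 and Spink4 had r = 0.82 for the mean (permutation adjusted p = 0.00157), which fell to 0.40 without the 2 tumours farthest from the median and so rests on those tumours. For the difference between clones this pair had 0.57 (permutation adjusted p = 0.0196), and 0.61 without the 2 tumours farthest from the median (adjusted p = 0.0185). For the difference between clones 10 of 21 pairs passed, and for the mean 7 of 21. By rank correlation these were 9 and 4, and without the 2 tumours farthest from the median only Zg16 and Tff3 passed for the mean.

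**Figure D4:**
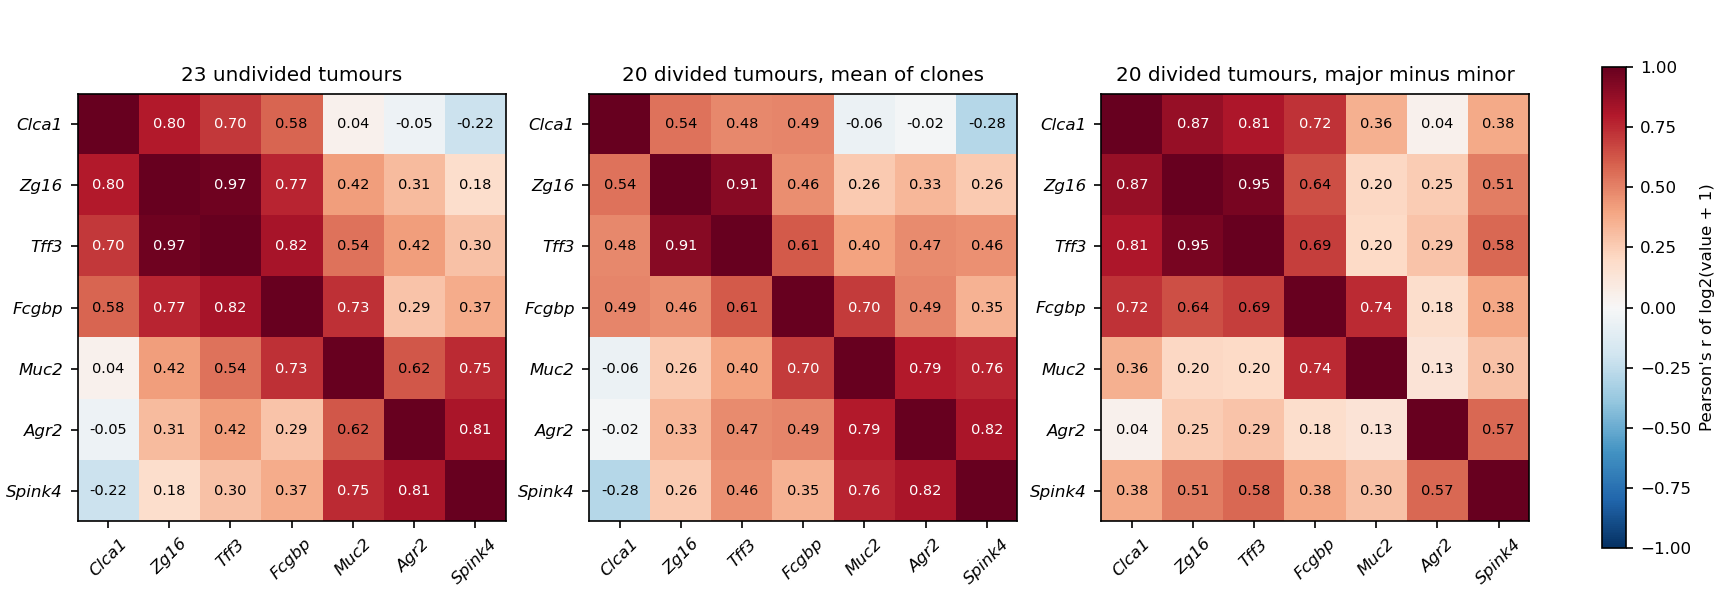
Pearson's r of log2(value + 1) for each pair of members over 23 undivided tumours, over 20 divided tumours as the mean of both clones, and over the same 20 tumours as the major minus minor difference. Zg16 and Tff3 have the highest r in all 3 panels (0.97, 0.91 and 0.95), and Clca1 has values near or below 0 with Agr2 and Spink4 in the first 2.

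The last relation was between the clones of a tumour. Over 20 tumours the level in the major clone followed that in the minor clone for Spink4 (r = 0.86, rho = 0.64), Agr2 (r = 0.70, rho = 0.55), Clca1 (r = 0.66, rho = 0.70) and Muc2 (r = 0.61, rho = 0.32). Permutation p adjusted over the 7 members was 0.00021, 0.0021, 0.00408 and 0.0171 for r and 0.00997, 0.0304, 0.00637 and 0.235 for rho, in that order. Zg16, Tff3 and Fcgbp had an r of 0.16, 0.18 and 0.32 (permutation adjusted p = 0.501, 0.501 and 0.239). Without the 2 tumours farthest from the median, Clca1 kept r = 0.67 (permutation adjusted p = 0.0145), while Spink4 had 0.54, Agr2 0.40 and Muc2 0.29, none of which passed (permutation adjusted p = 0.0655, 0.17 and 0.339). Fcgbp then had 0.52 (permutation adjusted p = 0.0655), which did not pass either. The r of Muc2, whose rho also did not pass, rests on those tumours. In the female mouse alone no member passed, with r of 0.68 for Spink4, 0.53 for Clca1, 0.37 for Agr2 and 0.07 for Muc2, and in the male mouse r was 0.93, 0.72, 0.77 and 0.66. Spink4, Agr2, Clca1 and Muc2 are also the members with an unadjusted p under 0.05 between SI10 and SI20, and both clones share a segment in 19 tumours. Centred on mouse and segment over those 19, r was 0.84 for Spink4, 0.60 for Muc2, 0.56 for Agr2 and 0.37 for Clca1, and no member passed (permutation within mouse and segment, adjusted p from 0.173 to 0.99, Spink4 with an unadjusted p of 0.026). No test compared the members' correlations with each other.

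By mouse, the undivided tumours differed most in Clca1 and Zg16, given here with no test because each mouse is 1 animal. Clca1 had a median of 3528 in the female and 10062 in the male mouse, and Zg16 one of 27147 and 57977. Tff3 followed with medians of 8319 and 17109. The order was turned for Spink4, with medians of 7105 and 5655.

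The genes most like the members were taken from all genes by their correlation with the mean z score of the members, as a description. Over the 23 undivided tumours, centred on the mouse, these were Tldc2 (r = 0.92), Tm4sf5 (0.91), Eepd1 (0.90), Creb3l3 (0.89), Fabp1 (0.88), Slc3a1 (0.88), Slc41a2 (0.88) and Rbp2 (0.88). Fabp1 and Rbp2 bind fatty acids and retinol in enterocytes, and Slc3a1 is part of an amino acid transporter of the brush border. For the difference between clones over 20 tumours they were Tmc6 (0.87), Smim31 (0.85), Gm1123 (0.84), Cyp4f40 (0.84), Chgb (0.83), Cck (0.82), Hkdc1 (0.82) and Cfhr2 (0.82). Chgb and Cck, a granin and a hormone, are products of enteroendocrine cells. The points share library, mouse and, in undivided tumours, whole-tumour composition.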

How the data were processed

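The authors trimmed reads with Trimmomatic 0.39, quantified them with Salmon 1.9.0 against Gencode M30 and deposited gene counts scaled between libraries (per the labels, DESeq2 was used). The deposited values, used here as a normalised signal, hold fractions from which no whole reads could be derived, so no count test was run. Values were analysed as log2(value + 1). FastQC 0.11.9, STAR 2.7.7a and Picard served quality control on GRCm39. The libraries were stranded and poly(A)-selected, from samples chosen for high RNA integrity.

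Genes whose mean value reached 10 in a comparison's libraries were fitted with limma 3.58.1 (R, trended empirical Bayes), with Benjamini-Hochberg adjustment over all genes and a threshold of 0.05. Major and minor clones were compared with tumour as a block, which pairs clones of the same tumour. Other comparisons had mouse as a covariate, except the clone gap between mice, which had none. Fold changes are on the log2(value + 1) scale and understate low genes. The limma fits were tested on simulated data for major against minor clones, undivided tumours against minor clones and SI20 against SI10. So was the clone gap between mice. Undivided tumours against major clones, the clone gap between segments and the correlations were not. Permutation tests used 100000 permutations. Named genes were the 7 members, the genes of 4 companion lists that were called (where none or over 4 were, the 2 largest each way), and the 8 most similar genes in each set of tumours. Only some of the uncalled extremes of the companion lists are printed. Muc17 stood in the table as Muc3 and was counted once. Marker lists for 11 other cell types or regions are given as the mean log2 level of a list per library or as the median limma fold change of its markers. The members and lists were chosen with earlier results of these data known. Alternatives covered pseudocounts of 0.1 and 5, no filter or a mean of at least 50, other scalings, covariates, each mouse alone and each tumour left out. Correlations over divided tumours, correlations centred on mouse or segment, and fits with undivided tumours numbered 1 to 10 only were added after seeing the data. The upstream windows of the other 2 members are not reported here.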

Additional observations from a re-analysis of the deposited data

How the results depend on the processing

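Between major and minor clones Spink4 kept its call in 11 of 15 alternatives and Clca1 in 6 of 15, and every member stayed higher in the major clone in all 15. The count of called genes (188, with 2 members) was 366 with quantile normalization, 292 with libraries set to the same sum and 2383 with scaling to epithelial genes, each with 2 members. It was 85 with no filter, 89 without the variance trend, 42 without tumour 22 of the female mouse (whose clones are labelled with different segments), 86 with SI10 and SI20 only and 48 by the exact signed-rank test, each with 1 member (Spink4, with Clca1 at adjusted p from 0.0533 to 0.0884). No member was called with Rn18s as a covariate (1 gene), in the male mouse alone (33 genes) or in the female mouse alone (limma, 0 genes, 1213 with an unadjusted p under 0.05). The replicate block pairs the clones of a tumour by its number in the labels; with no replicate block 1 gene and 0 members were called. Leaving out 1 tumour gave 25 (without 20 of the male mouse) to 859 genes (without 19 of the female mouse) and 0 to 3 members.

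Against minor clones the count for undivided tumours (610 genes) was 116 with scaling to epithelial genes and 325 with SI10 and SI20 only, both with 0 members (Clca1 at adjusted p = 0.0656 and 0.0502), 367 with segment as a covariate and 1457 with Rn18s as a covariate. In the female mouse alone it was 0 with 0 members (limma, 1428 genes with an unadjusted p under 0.05). Leaving out 1 library gave 274 (without the minor clone of male tumour 26) to 959 (without that of female tumour 19). Against major clones (2 genes) the count was 1 with quantile normalization and 0 with no filter, the same sum, epithelial scaling, Rn18s or segment as a covariate, SI10 and SI20 only, either mouse alone, or undivided tumours numbered 1 to 10 only (limma, 807 to 2580 genes with an unadjusted p under 0.05). Leaving out 1 library gave 0 to 25 genes (without male tumour 7) and 0 to 1 members. Between segments the undivided tumours (28 genes) gave 18 with a pseudocount of 0.1, 50 with epithelial scaling, 13 with Rn18s as a covariate, 15 with no covariate, 46 in the male and 0 in the female mouse (509 with an unadjusted p under 0.05), and 0 with tumours numbered 1 to 10 only (980). Clca1 was called, as 1 member, with quantile normalization and with epithelial scaling (limma adjusted p = 0.0348 and 0.0117). Leaving out 1 library gave 5 (without male tumour 8) to 53 genes (without female tumour 6) and 0 to 1 members. The divided tumours (46 genes, 30 of them higher in SI20, against 18 of 54 with epithelial scaling) gave 29 with no covariate, 6 in the male and 0 in the female mouse (805 with an unadjusted p under 0.05), and 13 (without female tumour 19) to 215 (without female tumour 23) when 1 was left out. The cause of these changes was not tested.

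Only values that had not passed changed sign. Against minor clones these were Fcgbp (-0.22) and Tff3 (-0.13) in the female mouse and Muc2 (0.24) and Agr2 (0.048) in the male mouse. Against major clones they were Zg16 with quantile normalization (-0.031), the same sum (-0.020) and in the female mouse (-0.33), Clca1 in the female mouse (-0.042), Fcgbp (0.10) and Tff3 (0.33) in the male mouse, and Tff3 with epithelial scaling (0.0045). Between segments they were Fcgbp (0.14 with quantile normalization, 0.062 with the same sum) and Tff3 (0.021 with the same sum, 0.0090 in the female mouse) in undivided tumours, and Fcgbp in divided tumours (-0.16 with epithelial scaling, -0.11 with Rn18s, -0.21 in the female mouse). Among correlations, sharing of Zg16 between clones had r = -0.031 in the female mouse. Muc2 and Clca1 had r = -0.12 in the male mouse -0.061 for the divided mean and -0.045 centred on the mouse, and Muc2 and Zg16 had -0.024 in the male mouse. Clca1 and Agr2 had 0.042 and Clca1 and Spink4 0.38 for the difference between clones, and the latter pair had 0.29 in the female mouse. Zg16 and Spink4 had -0.084 without the 2 tumours farthest from the median and -0.030 in the male mouse. Leaving out 1 tumour, Tff3 against major clones ran from -0.13 to 0.00081. Between segments Fcgbp ran from -0.16 to 0.073 and Tff3 from -0.21 to 0.065 in undivided tumours, and Fcgbp from -0.16 to 0.20 in divided ones. The segment gap between clones ran from -0.072 to 0.54 for Muc2 and from -0.22 to 0.43 for Fcgbp, and the mouse gap from -0.069 to 0.24 for Clca1, -0.29 to 0.029 for Agr2 and -0.11 to 0.14 for Spink4.

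The estimated depths, 13128900 to 51988700 reads, rest on the most common low value of each library and carry no error of their own. Muc2 did not go below 646 normalised counts in any clone, whereas B3gnt6, near the filter of 10, is less certain. The number of mice, 2, limits how far any comparison reaches.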

Other observations

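The gastric mucin Muc5ac, the gel-forming mucin of stomach surface cells, was present in these small intestinal tumours at very uneven levels. Its median was 1124 normalised counts for major clones, with a range of 1.45 to 5761. Minor clones had a median of 1327 (24.9 to 6239) and undivided tumours one of 518 (0 to 6295). The ranges of the 3 groups overlapped, and Muc5ac passed the test in none of the comparisons of these groups.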
